A study of Caenorhabditis elegans with 6 samples.

Results

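The genes described here are 6 genes of the hypoxia-inducible factor (HIF-1) pathway of *C. elegans*, namely *hif-1*, *egl-9*, *vhl-1*, *rhy-1*, *cysl-1* and *cysl-2*. They were chosen by name, with earlier results of these data known, and all 6 were found among the 19793 genes of the expression table. Expression was measured by poly(A) RNA-seq in neural cells isolated from L1 animals that were obtained by bleaching. The comparison is between 3 libraries of *adr-2 (-)* neural cells (strain BB78) and 3 libraries of *adr-2 (-)*; ADR-1 dsRBD1 neural cells (strain HAH57), named dsRBD1 mutant neural cells below. It asks how gene expression in the nervous system differs when ADR-1, an RNA-binding protein related to RNA editing enzymes, carries mutations in its first double-stranded RNA binding domain. ADR-2 is the adenosine deaminase that edits RNA in this animal, and both strains lack it through the *adr-2(ok735)* deletion. Both strains also carry RFP and GFP reporters under the neural *rab-3* promoter, and the ADR-1 of HAH57 has a FLAG tag besides the dsRBD1 mutations. A tag effect, a line effect and a domain effect cannot be told apart with these libraries.

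HIF-1 is a transcription factor that lets cells adapt to low oxygen. When oxygen is present, the prolyl hydroxylase EGL-9 hydroxylates HIF-1, the ubiquitin ligase subunit VHL-1 recognises the hydroxylated protein, and the proteasome degrades it. RHY-1, a multipass membrane protein, keeps HIF-1 activity low, whereas CYSL-1, a protein of the cysteine synthase family, binds EGL-9 and restrains it when hydrogen sulfide accumulates. CYSL-2 is an enzyme of the same family that detoxifies cyanide and sulfide. In worms *rhy-1*, *egl-9* and *cysl-2* are themselves known targets of HIF-1, so the pathway holds feedback on its own regulators. The libraries measure mRNA and hold no measure of HIF-1 protein, whose stability is the regulated step.

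The libraries held from 5686686 to 18382009 reads on genes. Each deposited value is a read count divided by 1 size factor per library, and is called the normalised value here. The shallowest library, *adr-2 (-)* replicate 3, stood apart. There, 52.6% of reads came from *rrn-3.1*, a ribosomal RNA gene (12.6% to 21.3% elsewhere), and 1 read was worth a normalised value of 3.25 (0.602 to 0.930 elsewhere). Genes with at least 1 read numbered 10532 in that library and 11971 in dsRBD1 mutant replicate 1. The other libraries had 14778 to 15887. Reads on *adr-2*, which is deleted in both strains, numbered 95, 79 and 44 in the *adr-2 (-)* replicates and 2, 30 and 4 in the dsRBD1 mutant replicates. As normalised values these were 85.6, 58.0 and 143, and 1.86, 18.1 and 2.86, so the groups did not overlap. Per 1000000 reads outside ribosomal RNA genes, 12 neuronal markers summed to 4104 to 4298 in *adr-2 (-)* libraries and 3803 to 4881 in dsRBD1 mutant libraries. Markers of other tissues were present as well. The sum over 8 muscle markers was 17934 to 24083 in *adr-2 (-)* and 19330 to 25014 in dsRBD1 mutant libraries, that over 8 intestine markers 6459 to 8232 and 5834 to 8649, and that over 8 hypodermis markers 149 to 666 and 125 to 1267. The sum over 8 germline and early embryo markers did not overlap between groups, at 144 to 575 in *adr-2 (-)* and 67.0 to 99.5 in dsRBD1 mutant libraries (p = 0.1 by an exact permutation test, two-sided, which cannot go lower with 3 libraries a group), and 6 of its 8 genes were lower in every dsRBD1 mutant library, as were 6.92% of all genes tested. DESeq2, with adjusted p-values over all genes, called 4 of the 8 lower, namely *nos-2*, *pos-1*, *oma-1* and *spn-4*. No marker of any list was at 0 in all libraries. In such bulk samples, fewer cells of a type and less RNA per cell cannot be told apart.

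No member of the pathway passed the test for a difference between dsRBD1 mutant and *adr-2 (-)* neural cells. Differences were tested with limma on log2(normalised value + 1). On this scale the change of low genes depends on the number added, and a library with 0 or 1 read can make it large. A gene was called changed at an adjusted p-value under 0.05 with an absolute log2 fold change above 0.5. By this rule limma called 0 of the 13705 genes tested (0%), and 872 passed 0.05 before adjustment. On the recovered read counts, edgeR also called 0, and 769 passed 0.05 before adjustment. DESeq2 called 317 (2.29%), of which 43 were higher and 274 lower. No pathway member was called by any of these 3 tests. All 6 members had a mean log2 value that was higher in dsRBD1 mutant neural cells, with a median log2 fold change of 0.56, and 54.5% of all tested genes were on the same side, with a median of 0.09. Without *adr-2 (-)* replicate 3, 5 of the 6 members were on that side with a median of 0.31, against 45.6% and a median of -0.07 for all genes tested.

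**Figure D1:**
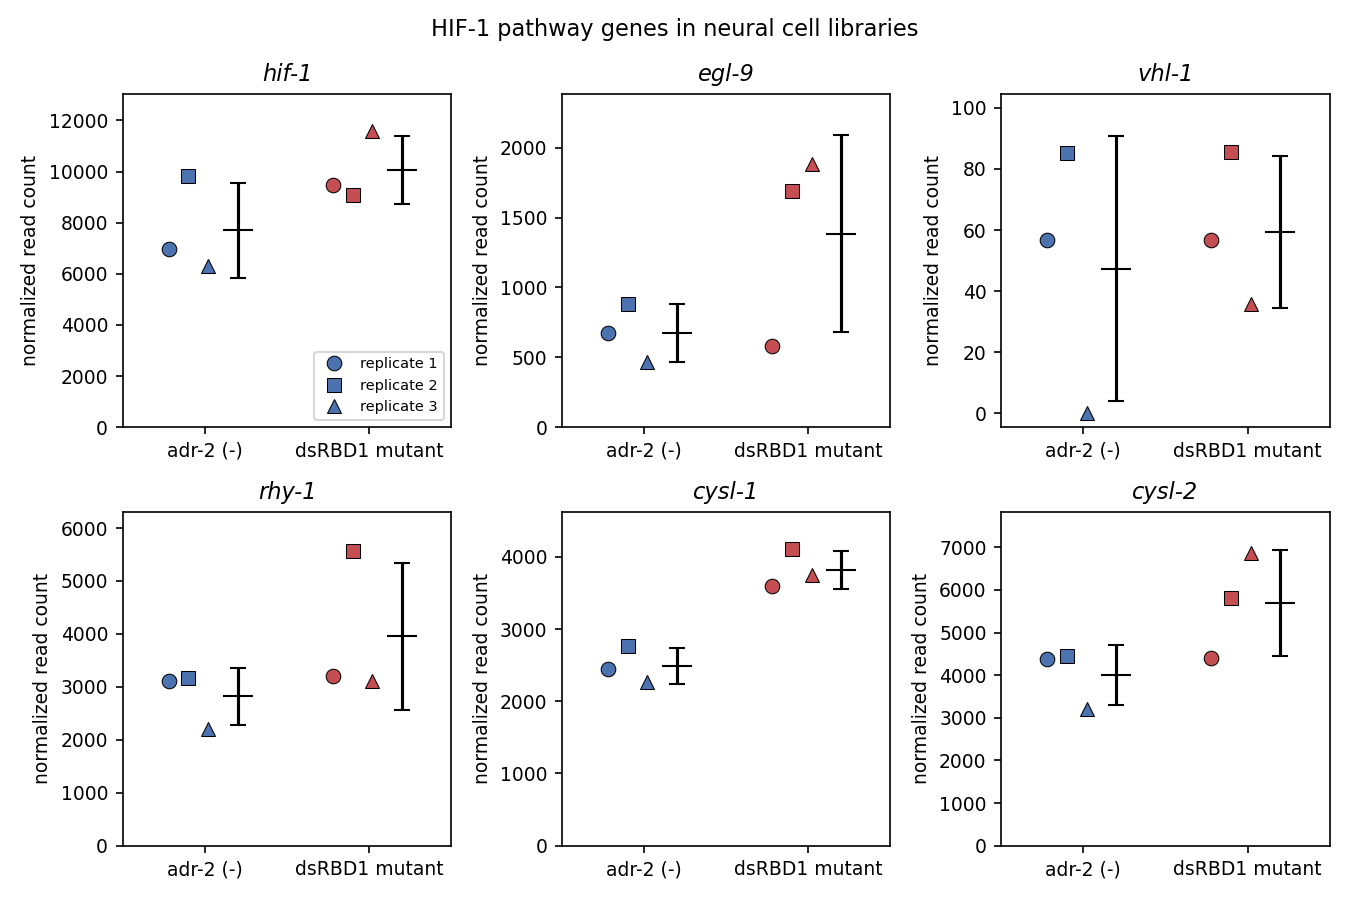
Normalised value (read count divided by the size factor of the library, vertical axis) of each of the 6 pathway genes in the 3 *adr-2 (-)* and the 3 dsRBD1 mutant libraries. Points are libraries and horizontal bars are group means with SD (n = 3). The groups separate for *cysl-1* (2270 to 2760 against 3589 to 4107), and they overlap for the other 5 genes.

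*hif-1*, which encodes the oxygen-regulated transcription factor itself, lies on chromosome V from 20780407 to 20785260 on the plus strand (WBcel235 assembly). Its normalised values were 6968, 9807 and 6317 in *adr-2 (-)* replicates 1, 2 and 3, and 9489, 9096 and 11579 in dsRBD1 mutant replicates 1, 2 and 3. The groups overlapped, since *adr-2 (-)* replicate 2 lay above dsRBD1 mutant replicates 1 and 2. The means were 7697 ± 1856 and 10055 ± 1334 (SD, n = 3). The log2 fold change was 0.40 (SE 0.24, 95% interval -0.11 to 0.92, limma adjusted p = 0.741). This difference in the mRNA of the transcription factor did not pass the test.

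*egl-9*, the prolyl hydroxylase that marks HIF-1 for degradation, lies on chromosome V from 10468517 to 10476915 on the plus strand. Its values were 672, 884 and 468 in *adr-2 (-)* replicates 1, 2 and 3, and 578, 1689 and 1886 in dsRBD1 mutant replicates 1, 2 and 3. Replicates 2 and 3 of the mutant were above every *adr-2 (-)* library, while replicate 1 lay inside the *adr-2 (-)* range. The mean was 675 ± 208 against 1385 ± 705 (SD, n = 3), and the mutant group had a coefficient of variation of 50.9%. The log2 fold change of 0.91 did not pass the test (SE 0.42, 95% interval -0.01 to 1.83, limma adjusted p = 0.741). dsRBD1 mutant replicate 1, where only 11971 genes had a read, decided the size of this difference. Without it the log2 fold change was 1.45 (limma adjusted p = 0.130), and DESeq2, an alternative chosen after seeing the data, then called *egl-9* with a log2 fold change of 1.41 (adjusted p = 0.00773) among 443 genes called (3.36% of 13175). Without each of the other libraries in turn, limma gave 0.60 to 1.13 and no call.

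*vhl-1* encodes the subunit that recognises hydroxylated HIF-1, and lies on chromosome X from 11307356 to 11308518 on the plus strand. It was the member with the fewest reads, at 63, 116 and 0 in *adr-2 (-)* replicates 1, 2 and 3, and 61, 142 and 50 in dsRBD1 mutant replicates 1, 2 and 3. As normalised values these were 56.8, 85.1 and 0, and 56.7, 85.5 and 35.8. Replicates 1 and 2 were nearly the same in both groups, and the lowest library was *adr-2 (-)* replicate 3. In that library a floor of 3 reads is a value of 9.76, and the values of the other libraries would have given 11.0 to 26.3 reads. The fitted log2 fold change of 1.74 (SE 1.88, limma adjusted p = 0.782) depends on the number added before taking logs and is no bound. It was 0.31 with DESeq2 and turned to -0.31 without *adr-2 (-)* replicate 3, so these libraries give no direction for *vhl-1*.

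*rhy-1*, whose product keeps HIF-1 activity low, lies on chromosome II from 9161379 to 9163448 on the plus strand. It had values of 3111, 3162 and 2205 in *adr-2 (-)* replicates 1, 2 and 3, and of 3209, 5562 and 3105 in dsRBD1 mutant replicates 1, 2 and 3. A single mutant library, replicate 2, stood above the rest, and the other mutant libraries lay close to *adr-2 (-)* replicates 1 and 2. Means were 2826 ± 538 and 3959 ± 1390 (SD, n = 3), for a log2 fold change of 0.45 (SE 0.27, 95% interval -0.13 to 1.03, limma adjusted p = 0.741). It was 0.18 without dsRBD1 mutant replicate 2 and 0.28 without *adr-2 (-)* replicate 3. The gene shares 82 exon bases with W07A12.8 on the opposite strand. The strand setting of the read counting is not given in the sources used here, and reads on W07A12.8 reached at most 2.52% of those on *rhy-1*.

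*cysl-1*, the sulfide-responsive regulator that binds EGL-9, lies on chromosome X from 9952579 to 9954533 on the minus strand. Its values were 2441, 2760 and 2270 in *adr-2 (-)* replicates 1, 2 and 3, and 3589, 4107 and 3745 in dsRBD1 mutant replicates 1, 2 and 3. Here the groups did not overlap, and every mutant library lay above every *adr-2 (-)* library. The means were 2491 ± 249 and 3814 ± 266 (SD, n = 3), with the smallest coefficients of variation among the 6 members in both groups (9.98% and 6.97%). The log2 fold change was 0.62 (SE 0.20, 95% interval 0.18 to 1.05), and its SE was smaller than that of 99.7% of the tested genes. With limma the adjusted p-value over all genes was 0.703 (0.00907 before adjustment), with edgeR it was 0.644 and with DESeq2 0.108, so the difference was not called. An exact two-sided permutation test gave p = 0.1, the smallest possible.

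Among all tested genes, 6.8% had every dsRBD1 mutant library above every *adr-2 (-)* library, and 3.46% were higher with an unadjusted limma p-value under 0.05. *cysl-1* was the only 1 of the 6 members in either class. Its log2 fold change was 0.55 to 0.69 over the 6 fits that each omitted 1 library, with limma adjusted p-values of 0.393 to 0.915, and DESeq2 gave adjusted p-values of 0.0506 to 0.4997 in the same settings. The summed germline markers separated the groups in the opposite direction (144 to 575 against 67.0 to 99.5 on the same scale), and their part in the difference of *cysl-1* was not tested. Without *adr-2 (-)* replicate 3, the library rich in *rrn-3.1*, the log2 fold change of *cysl-1* was 0.55.

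*cysl-2*, the detoxifying enzyme and HIF-1 target, lies on chromosome II from 14492874 to 14494451 on the minus strand. The values were 4378, 4448 and 3204 in *adr-2 (-)* replicates 1, 2 and 3, and 4395, 5815 and 6863 in dsRBD1 mutant replicates 1, 2 and 3. Mutant replicates 2 and 3 were above all *adr-2 (-)* libraries, and replicate 1 fell between *adr-2 (-)* replicates 1 and 2. The means of 4010 ± 699 and 5691 ± 1239 (SD, n = 3) gave a log2 fold change of 0.50 (SE 0.24, 95% interval -0.02 to 1.01, limma adjusted p = 0.741). It shares 36 exon bases with *vnut-1* on the opposite strand, whose reads reached at most 6.26% of those of *cysl-2*.

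All 6 members had log2 fold changes above the all-gene median with all libraries. The share of tested genes with a lower log2 fold change was 65.4% for *hif-1*, 67.0% for *rhy-1*, 68.8% for *cysl-2*, 72.5% for *cysl-1*, 78.7% for *egl-9* and 87.5% for *vhl-1*. The direction held under the 5 scalings that were compared, which shifted the median of all genes from -0.05 to 0.21 on the log2 scale. Relative to that median, the log2 fold change was 0.31 to 0.33 for *hif-1*, 0.81 to 0.84 for *egl-9*, 0.35 to 0.38 for *rhy-1*, 0.52 to 0.55 for *cysl-1* and 0.40 to 0.43 for *cysl-2*. For *vhl-1* it was 1.45 to 1.71 with all libraries, a value that rests on its 0 reads in *adr-2 (-)* replicate 3.

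**Figure D2:**
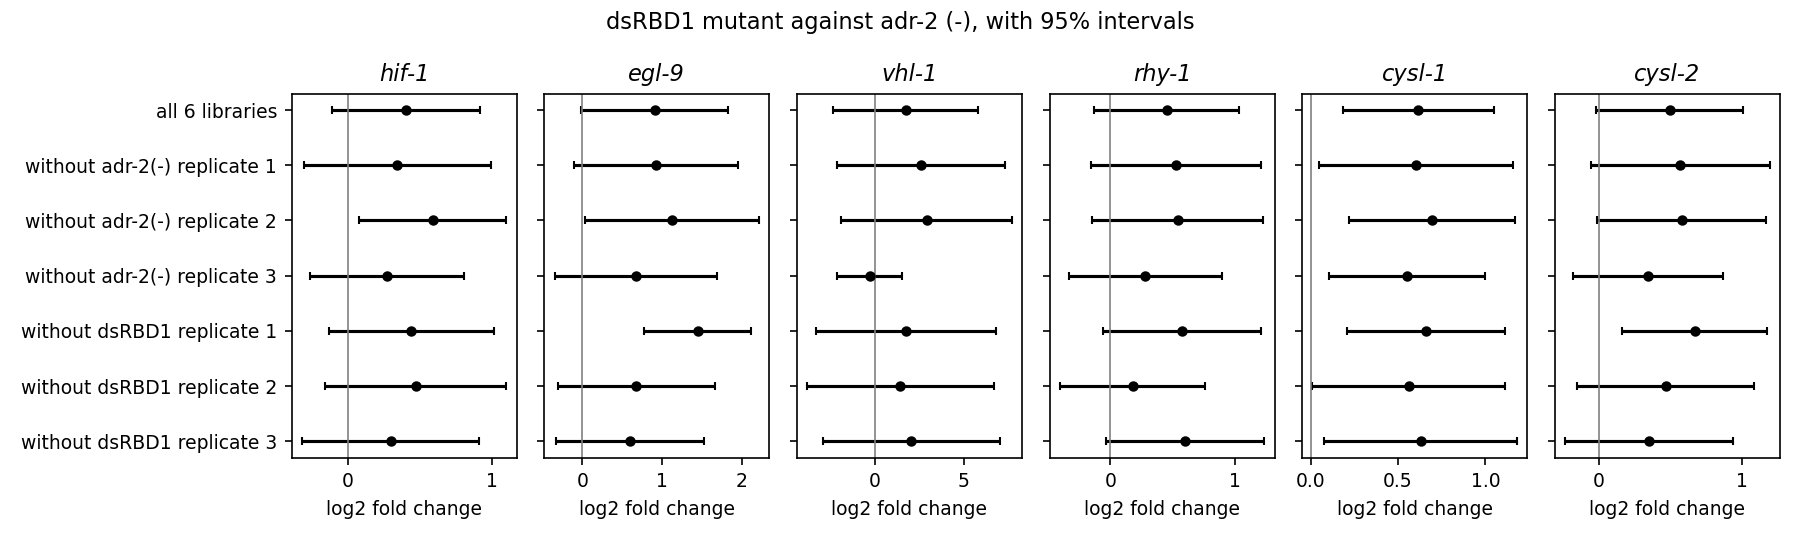
Log2 fold change (dsRBD1 mutant minus *adr-2 (-)*, horizontal axis) of each pathway gene with all libraries and with each library left out in turn, from limma. Bars are 95% intervals, and the horizontal scale differs between genes. *cysl-1* stays between 0.55 and 0.69, *egl-9* moves between 0.60 and 1.45, and *vhl-1* moves from -0.31 to 2.90.

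The members differed widely in level. Normalised values per kilobase of exon, averaged over the 6 libraries, were 4319 for *cysl-2*, 2999 for *hif-1*, 2550 for *cysl-1*, 2034 for *rhy-1*, 303 for *egl-9* and 59.6 for *vhl-1*. These levels were higher than those of 98.6%, 98.2%, 97.8%, 97.3%, 83.2% and 52.2% of 19784 genes, in the same order. Thus 4 members were among the abundant mRNAs of the preparation, and both genes that act directly in HIF-1 degradation, the hydroxylase *egl-9* and the ligase subunit *vhl-1*, were the lowest. Neighbours at the top of the order overlapped. *cysl-2* exceeded *hif-1* per kilobase in 6 of 6 libraries although their ranges overlapped, *hif-1* exceeded *cysl-1* in 5 of 6, and *cysl-1* exceeded *rhy-1* in 5 of 6. The ranges of *rhy-1* and *egl-9* were separate, with *rhy-1* 3.35 to 11.3 times as high within a library, and those of *egl-9* and *vhl-1* were separate too.

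**Figure D3:**
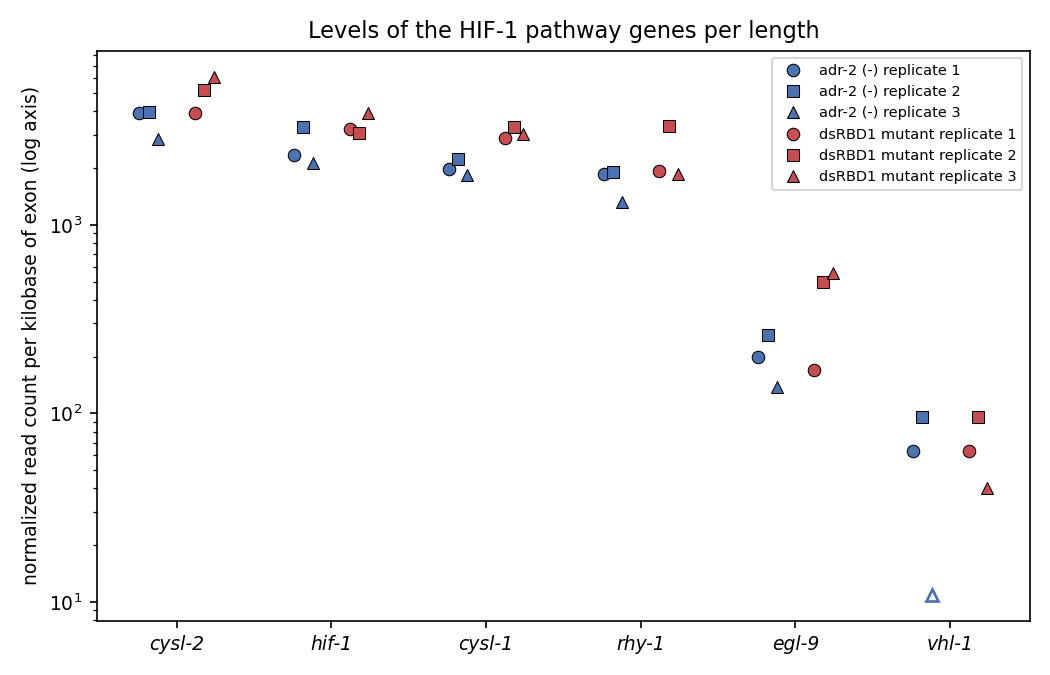
Level per kilobase of exon (log axis) of the 6 pathway genes in each library, ordered by mean. The open triangle marks *vhl-1* in *adr-2 (-)* replicate 3, which had 0 reads and is drawn at the floor of 3 reads. *cysl-2*, *hif-1*, *cysl-1* and *rhy-1* lie close together, and *egl-9* and *vhl-1* lie below all of them.

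Ratios within a library do not depend on its scaling, and none of the 6 that were compared separated the groups. For 100 reads on *hif-1* there were 9.65, 9.01 and 7.42 on *egl-9* in *adr-2 (-)* replicates 1, 2 and 3, and 6.09, 18.6 and 16.3 in dsRBD1 mutant replicates 1, 2 and 3. The mutant libraries thus held both the lowest and the highest ratio of hydroxylase to transcription factor mRNA. *cysl-1* had 28.1 to 45.2 reads for 100 on *hif-1*, *rhy-1* had 26.8 to 61.1, and *cysl-2* had 45.4 to 63.9. Exact two-sided permutation tests of the 6 ratios gave p-values of 0.4 to 0.9 (0.84 to 0.9 after Benjamini-Hochberg adjustment over the 6).

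Across the 6 libraries, the pair of members with the most similar log2 values was *egl-9* and *cysl-2*, with a Pearson correlation of 0.94. Correlations over so few libraries describe these libraries only, since the points share depth and group. Among the 8203 genes whose mean value reached 100, the 3 most similar to *hif-1* were *daf-22*, *idhg-2* and *epc-1*, and those most similar to *egl-9* were ZK1055.6, *unc-82* and *skn-1*. For *cysl-1* they were *tps-1* (0.996), *lgl-1* and *snx-17*, and for *cysl-2* they were *dpy-28*, *syx-2* and *pab-2*. *rhy-1* was nearest to T10G3.3, *aakb-2* and C06H2.6. *vhl-1* was nearest to *pme-4*, *unc-64* and *maf-1*, but 649 genes reached 0.95 with it, against 10 to 88 for the other members.

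The proteins that act with the members were looked at through lists of their genes. Partners of HIF-1 and of the VHL ubiquitin ligase gave 6 tested genes, of which 4 had a log2 fold change above 0 and 2 below, with a median of 0.19. Without *adr-2 (-)* replicate 3, 3 of the 6 were above 0, with a median of 0.07. None was called by limma, edgeR or DESeq2. The largest was *elc-1*, the elongin C subunit, with values of 232, 228 and 208 in *adr-2 (-)* replicates 1, 2 and 3 and of 328, 337 and 272 in dsRBD1 mutant replicates 1, 2 and 3 (log2 fold change 0.48, limma adjusted p = 0.761). The smallest was *elb-1*, the elongin B subunit, at 248, 209 and 407 against 56.7, 185 and 116 (log2 fold change -1.36, limma adjusted p = 0.741). So the paired elongins lay on opposite sides, neither passed the test, and in both the groups did not overlap. *cul-2*, the cullin of the ligase, was the other gene with all mutant libraries higher, and it is named after its values were seen (means 759 ± 86.3 and 958 ± 72.2, SD, n = 3). Of all tested genes, 6.8% had every mutant library above every *adr-2 (-)* library, 6.92% had every mutant library below every *adr-2 (-)* library, and 2.9% were lower with an unadjusted p-value under 0.05.

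HIF-1 target genes other than the members gave the list with the most genes on the higher side. The list also holds *ftn-1*, whose transcription HIF-1 represses, so its counts describe mRNA and are no measure of HIF-1 activity. Of 14 tested genes, 13 had a log2 fold change above 0 (all tested genes 54.5%), with a median of 0.70. None was called by limma, edgeR or DESeq2, and 4 had an unadjusted limma p-value under 0.05 in the higher direction (all tested genes 3.46%). In 6 of the 14, every dsRBD1 mutant library lay above every *adr-2 (-)* library (all tested genes 6.8%). Without *adr-2 (-)* replicate 3 there were again 13 above 0 and 6 that did not overlap, with a median of 0.67, against 45.6% and 10.01% of all tested genes. The list was put together with earlier results of these data known. Between the same groups the germline markers moved the opposite way. Of the 8 muscle markers 2, *myo-1* and *myo-2*, were higher in every mutant library. The part of these markers in the counts of the target list was not tested.

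The largest log2 fold change of the target list was that of *ftn-1*, an iron-storing ferritin whose transcription HIF-1 represses. Its values were 152, 205 and 3.25 in *adr-2 (-)* replicates 1, 2 and 3, and 350, 391 and 291 in dsRBD1 mutant replicates 1, 2 and 3. The groups did not overlap, and *adr-2 (-)* replicate 3 held 1 read. The log2 fold change was 2.74 (limma adjusted p = 0.741), and 0.95 without that library. The smallest was that of *smf-3*, an iron transporter, at -0.40 (limma adjusted p = 0.876). Its values overlapped, at 173, 88.1 and 137 in *adr-2 (-)* and 68.8, 120 and 108 in dsRBD1 mutant replicates.

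The other 5 target genes that did not overlap are named after their values were seen. *sqrd-1*, the sulfide quinone oxidoreductase that removes hydrogen sulfide in mitochondria, had values of 1045, 1554 and 660 in *adr-2 (-)* replicates 1, 2 and 3, and of 1959, 2170 and 1988 in dsRBD1 mutant replicates 1, 2 and 3. Its mutant libraries were close to each other and above the others (log2 fold change 0.99, SE 0.29, limma adjusted p = 0.703, and 0.68 without *adr-2 (-)* replicate 3). F22B5.4, a gene known as a HIF-1 target, had values of 202, 272 and 286 against 633, 546 and 435 (log2 fold change 1.08, SE 0.36, limma adjusted p = 0.708). *fmo-2*, a flavin-containing monooxygenase, had 1850, 903 and 1490 against 2694, 2592 and 1865, so that its groups nearly touched. *cdo-1*, the cysteine dioxygenase that breaks down cysteine, had means of 557 ± 48.7 and 796 ± 186, and *phy-2*, a collagen prolyl hydroxylase subunit, had 124 ± 26.1 and 226 ± 63.3 (SD, n = 3).

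**Figure D4:**
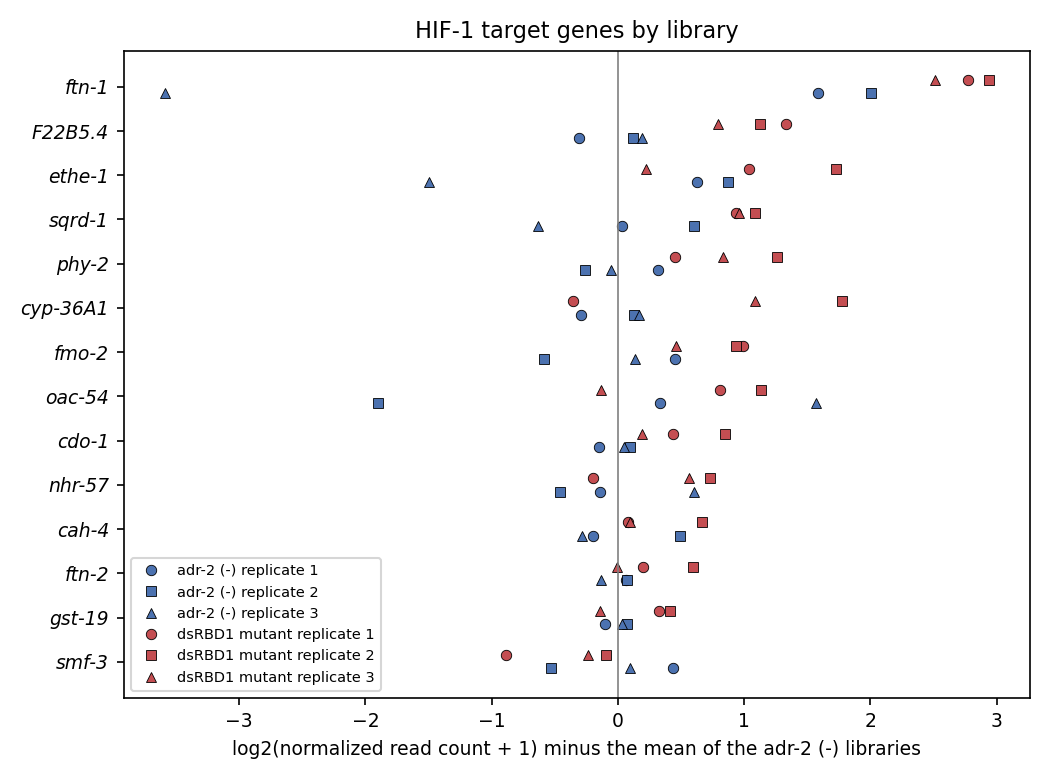
Log2(normalised value + 1) of each HIF-1 target gene in every library, minus the mean of the 3 *adr-2 (-)* libraries (horizontal axis, with 0 at that mean). Symbols are single libraries, blue for *adr-2 (-)* and red for dsRBD1 mutant. In 6 of the 14 genes all mutant libraries lie above all *adr-2 (-)* libraries, and *ftn-1* has 1 read in *adr-2 (-)* replicate 3.

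The listed genes of cysteine and hydrogen sulfide metabolism, the pathway that CYSL-1 and CYSL-2 belong to by sequence, were not on one side. The list leaves out *sqrd-1* and *cdo-1*, placed with the HIF-1 targets above, which had log2 fold changes of 0.99 and 0.49. Of 16 listed genes, 12 were matched and 9 tested. 5 were above 0 and 4 below, the median log2 fold change was 0.07, and no gene had groups that did not overlap or an unadjusted p-value under 0.05. The largest was *mpst-1*, a mercaptopyruvate sulfurtransferase, at 0.30 (values 263, 300 and 55.3 against 180, 232 and 198). It turned to -0.47 without *adr-2 (-)* replicate 3, its lowest library, and was -0.03 with DESeq2 on all libraries. The smallest was *suox-1*, sulfite oxidase, at -0.36 (214, 357 and 228 against 191, 155 and 276). In both genes the groups overlapped. Without *adr-2 (-)* replicate 3 the list had 2 of 9 genes above 0 and a median of -0.13, and 1 gene was lower in every mutant library.

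A further list held 10 genes of oxygen sensing and of other hypoxia responses. It was put together with earlier results of these data known. It holds *pqm-1*, which the authors counted among the genes with higher expression in this same comparison. Of the 10 genes, 9 were above 0 (all tested genes 54.5%), with a median log2 fold change of 0.54. In the higher direction, 3 had an unadjusted limma p-value under 0.05 (all tested genes 3.46%) and 2 did not overlap between groups (all tested genes 6.8%). None was called by limma, edgeR or DESeq2 with all libraries. Named after their values were seen, the 3 were *pqm-1*, a zinc finger transcription factor (log2 fold change 1.12), the kinase gene *hpk-1* (0.88) and the nuclear receptor gene *nhr-49* (0.59), and the 2 that did not overlap were *pqm-1* and *hpk-1*. The separation of *hpk-1* was very narrow, with 1893.51 in *adr-2 (-)* replicate 2 and 1893.52 in dsRBD1 mutant replicate 2. Without *adr-2 (-)* replicate 3, the log2 fold change was 0.90 for *pqm-1*, 0.39 for *hpk-1* and 0.43 for *nhr-49*, and the unadjusted limma p-values of *hpk-1* and *nhr-49* were no longer under 0.05. In that setting 8 of the 10 genes were above 0 (all tested genes 45.6%), with a median of 0.32, and 3 were higher in every mutant library (all tested genes 10.01%). The largest was *gcy-33*, a soluble guanylate cyclase of oxygen-sensing neurons, with values of 94.6, 50.6 and 0 against 43.7, 126 and 79.4. Its fitted log2 fold change of 2.18 rests on the 0 in *adr-2 (-)* replicate 3 and is no bound, and it was 0.13 without that library. The smallest was *glb-5*, an oxygen-sensing globin, at -0.69, with values of 0, 14.7 and 348 against 0, 30.7 and 40.1. Its highest library was *adr-2 (-)* replicate 3, without which the log2 fold change turned to 1.46, and the groups overlapped.

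**Figure D5:**
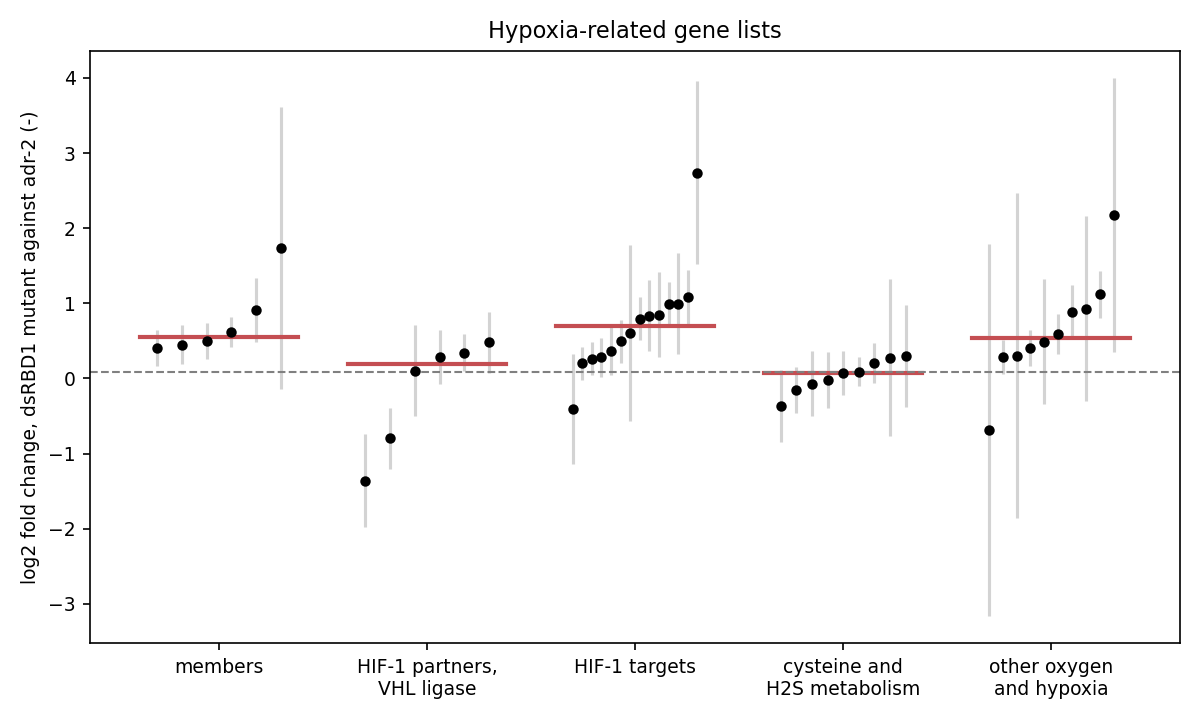
Log2 fold change (dsRBD1 mutant minus *adr-2 (-)*) of every tested gene of the pathway members and of the 4 related lists. Points are genes with SE bars in grey, red bars are list medians, and the dashed line is the median of all tested genes (0.09). Medians are 0.56 for the members, 0.19 for the partners, 0.70 for the HIF-1 targets, 0.07 for cysteine and sulfide metabolism and 0.54 for the other hypoxia genes.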

How the data were processed

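Neural cells of L1 animals were sequenced as poly(A) RNA with stranded, 75 bp single-end reads in 6 libraries, 3 per genotype, grouped by the genotype in the labels. The authors aligned reads with STAR 2.7.8a to WS275 (the WBcel235 assembly), kept unique alignments, counted reads per gene and divided the counts by DESeq2 size factors. The signal the authors deposited is this normalised count. Dividing by the value of 1 read gave whole numbers (tolerance 0.1 read) for 100% of values, which are the read counts used here. Deposited columns of the authors' own log2 fold changes, p-values and adjusted p-values were not used. Rows with no gene name numbered 49 and were kept under their identifiers, and 19784 of the 19793 identifiers were found in the annotation. *adr-1* is not analysed here.

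In R 4.3.3, limma 3.58.1 compared log2(value + 1) between groups with a mean-variance trend, over genes whose mean value reached 10 and with Benjamini-Hochberg adjustment over all of them. The recovered reads were tested with edgeR 4.0.16 and DESeq2 1.42.0. All were run on simulated data with planted changes larger than the main fit gave for any member. Those runs cannot tell whether changes of the members' size would be found. Single values were compared by exact permutation tests in Python 3.11.15 with scipy 1.17.1. Alternatives were a pseudocount of 0.5, no filter, at least 10 reads in every library, TMM, totals with or without ribosomal RNA genes, a replicate block and leaving out each library. Scaling to neuronal markers and DESeq2 with each library left out were chosen after seeing the data. The members and all lists were chosen with earlier results of these data known. By rule, the genes named were the members, the largest and the smallest change of each pathway list with any gene called, and the 3 genes most similar to each member. Other genes were named after their values were seen. Among them were *cul-2*, the target genes with groups that did not overlap, *pqm-1*, *hpk-1*, *nhr-49*, *myo-1*, *myo-2* and the germline markers called. Depth limits the low genes. 3 reads, the floor used here, were 1.63e-05% to 5.28e-05% of a library, and such floors cover counting error only. The methods call the replicates independent. No 2 replicates of a group were identical (chi-square per degree of freedom of 57.3 to 336).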

Additional observations from a re-analysis of the deposited data

How the results depend on the processing

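Over 24 alternatives, 140 of 143 member values kept their direction and 139 also their side of the threshold. The exceptions were *egl-9*, which ranged from 0.60 to 1.45 with libraries left out and was called by DESeq2 without dsRBD1 mutant replicate 1 (1.41), and *vhl-1*, which ranged from -0.31 to 2.90 and reversed without *adr-2 (-)* replicate 3 (-0.31 with limma, -0.26 with DESeq2) and with DESeq2 without dsRBD1 mutant replicate 2 (-0.05). *vhl-1* gave no value with at least 10 reads in every library. The cause was not tested. At the adjusted threshold the limma and edgeR fits called at most 21 genes, so in them a member could hardly have changed side.

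The count of genes called, 0 with limma, was 3 with no filter on low values, 872 at an unadjusted p-value under 0.05 and 317 with DESeq2. With libraries left out it was 0 to 11 with limma and 120 to 519 with DESeq2. With the replicate block it was 21 with limma, 4 with edgeR and 251 with DESeq2. No member was called with the block. The deviations of same-numbered libraries from their group means correlated at -0.09, 0.04 and -0.06. With 3 libraries per group these values cannot settle whether the replicate numbers pair the libraries. Of the members and listed genes, 0 to 3 were called with libraries left out, all by DESeq2. These were *pqm-1* and *sqrd-1* without *adr-2 (-)* replicate 2, where DESeq2 called 519 of 13115 genes. Without dsRBD1 mutant replicate 1 they were *pqm-1*, *egl-9* and *cyp-36A1*, among 443 of 13175 genes called (3.36%). The members and the related lists held 6, 6, 14, 9 and 10 genes tested with limma. With 3 libraries per group, the 95% interval of *cysl-1*, the most precise member, still spanned 0.18 to 1.05.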
